A study of Mus musculus with 20 samples.

Results

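Small nucleolar RNAs (snoRNAs) are counted here in small RNA libraries of mouse skin. The table lists 353 entries of the snoRNA class among 2127 small RNA features, and the 253 entries with a mean raw count of at least 5 over the 20 libraries are described, while the other 100 lie below that mean. The values that chose them are thus their own counts, averaged over all libraries without regard to group. The entries just inside the limit both had a mean of 5.0 (chrX:34622907-34623037 and chr2:144087325-144087462), and the entries just outside it both had a mean of 4.55 (chr13:75905516-75905645 and chr16:23111690-23111828). Positions are on mm9, the build that the submitters' processing notes name, except where another build is given.

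The 20 libraries came from the inbred FVB/N mouse strain and form 4 groups of 5: healthy skin treated with acetone, which served as the control, and, all 3 treated with DMBA/PMA, hyperplastic skin, papillomas and cutaneous squamous cell carcinomas (cSCC). DMBA is a mutagen that starts tumours and PMA a phorbol ester that promotes them, so that chemical treatment and lesion cannot be told apart in any comparison with healthy skin. The labels speak of biopsies and give no age, dose or time, and whether the biopsies of a group are from different animals is not said, so that a p-value here reflects library-to-library spread alone. Small RNA libraries were made with a kit for the SOLiD system, an instrument that reads colour-coded bases, and were cut from a gel at 110 to 150 nt including adapters.

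As background, snoRNAs are stable RNAs of the nucleolus, most of them released from introns of longer transcripts. Those with C and D boxes carry fibrillarin, which methylates the ribose of ribosomal RNA and small nuclear RNA at bases chosen by pairing. Those with H and ACA boxes carry dyskerin, which turns chosen uridines into pseudouridine, and they are as a rule longer. Shorter RNAs cut from snoRNAs are known in many tissues, and some entries of miRNA databases lie inside snoRNAs. A library of small RNA therefore counts fragments together with any whole snoRNA short enough to pass the gel, and neither the amount of the intact RNA nor the modification of ribosomal RNA was measured.

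The names did not allow C/D and H/ACA snoRNAs to be told apart: 247 of the 253 members carry identifiers that begin with FR and are paired with no gene name, and 6 carry Ensembl transcript identifiers. The members were therefore split by annotated length alone, into 151 short entries of 15 to 98 bases and 102 long entries of 104 to 275 bases (median of all members 85 bases). The 2 length classes stand for no snoRNA class by themselves. Entries are named below by position and length, since no gene name could be given. The Ensembl entries stand apart in another way: 35 of the table's 36 Ensembl snoRNA entries have the coordinates of GRCm38 to within 1 base, whereas only 20 of 884 mature miRNAs that could be compared do, so what was counted at the Ensembl entries is uncertain. Among the members with FR identifiers were 44 overlapping pairs, which involve 88 entries. With each Ensembl entry taken as a locus of its own, whatever it overlaps, 209 loci remain. The sources used here do not give how the authors assigned a read that falls in several entries.

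Several abundant members contain a short entry of the piRNA class with nearly the same count. The most abundant member, a 69-base entry at chr16:23109026-23109094, had a mean of 7347 counts, and a 29-base entry of the piRNA class that lies 36 bases into it had a mean of 7248 counts, which is 98.6% of the larger entry. Across the 20 libraries this share ran from 94.1% to 99.3%. Such percentages are ratios of the counts of 2 entries; whether the same reads were counted in both is not stated in the sources used here. piRNAs are known as germline RNAs that silence transposons; the class is given here only as the table's label. The table gives no strand, so the stretch cannot be assigned to either end of the RNA. A 28-base piRNA-class entry had 90.4% as many counts as the 65-base member at chr4:130305553-130305617, starting 37 bases into it. A 74-base member at chr11:106362305-106362378 contains an entry of this class 18 bases long at its first base, with 33.1% as many counts. Another inside it, 30 bases long and 45 bases in, had 21.0% as many.

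In all, 15 overlaps with piRNA-class entries were found in 14 members, and in each of the 15 the piRNA-class entry was never above the snoRNA entry in any library. A 29-base entry at the first base of the 72-base member at chr2:130103752-130103823 had 94.4% as many counts as that member. A 29-base entry starting 1 base into the 95-base member at chr5:108333572-108333666 had 91.3% as many. Both members differ from the chromosome 16 and chromosome 4 entries in that the short entry lies at the low-coordinate end. The piRNA-class counts may hold the same reads as the snoRNA counts and are not taken here as a second measurement.

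Mature miRNA entries overlap 15 members, 20 miRNAs in all, and here the larger count was often that of the miRNA. In 3 of these overlaps the miRNA runs past an end of the member by more than 1 base. The sequences of the 4 miRNAs with the most counts are shown, because their mean counts are above those of the members that contain them, with miR-1843b-5p for comparison with miR-1843a-5p; they are RefSeq's mature sequences on GRCm38.p6, 5′ to 3′, with the seed (bases 2 to 8) in capitals.
miR-664-3p: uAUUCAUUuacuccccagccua
miR-5121: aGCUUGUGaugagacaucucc
miR-1843a-5p: uAUGGAGGucucugucugacu
miR-1843b-5p: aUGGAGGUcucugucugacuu
miR-3068-5p: uUGGAGUUcaugcaaguucuaacc
RefSeq places them at chr1:185243012-185243033 (plus strand), chr7:45126925-45126945 (minus), chr12:80391654-80391674 (minus), chr1:159340362-159340382 (plus) and chr12:87437724-87437747 (minus), in the order printed. The table calls miR-1843a-5p miR-1843-5p. RefSeq gave a sequence for 15 of the 20, and their 15 seeds all differ.

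miR-664-3p had a mean of 324 counts, against 19.5 counts for the 132-base snoRNA entry that contains it, and it was above that entry in 20 of 20 libraries. miR-5121 stood at 802 counts against 50.5 for its 82-base entry, and miR-3068-5p at 148 against 7.3 for its 126-base entry, again in 20 of 20 libraries each. An entry that holds fewer counts than a miRNA inside it does not hold all of that miRNA's reads. miR-664-3p had 23.5, 43.7, 38.5, 52 and 63.5 CPM (scaled as described below) in papillomas and 114, 97.5, 88.6, 98.1 and 113 CPM in healthy skin, with no overlap, and fell by 1.21 on the log2 scale (SE 0.31, adjusted p = 0.00519, edgeR quasi-likelihood F test). Its 132-base snoRNA entry had 3.11, 3.55, 9.03, 3.2 and 13.9 CPM in papillomas and 3.2, 3.49, 4.29, 1.24 and 4.98 CPM in healthy skin, with a log2 fold change of 0.86 ± 0.48 (SE) that was not called (adjusted p = 0.154). The difference between these 2 changes was not tested. In cSCC miR-664-3p also fell (-1.52 ± 0.31, adjusted p = 0.000479), and so did miR-3068-5p (-1.28 ± 0.32, adjusted p = 0.00248), miR-1843a-5p (-1.39 ± 0.47, adjusted p = 0.0195) and miR-1843b-5p (-1.54 ± 0.46, adjusted p = 0.00977). With the second scaling neither miR-1843 call in cSCC was made (adjusted p = 0.0916 for miR-1843a-5p and 0.0533 for miR-1843b-5p). In papillomas miR-3068-5p (-0.98 ± 0.32, adjusted p = 0.019), miR-1843a-5p (-1.66 ± 0.48, adjusted p = 0.0103) and miR-1843b-5p (-1.69 ± 0.47, adjusted p = 0.00826) fell against healthy skin; with the second scaling the miR-3068-5p call in papillomas was not made (adjusted p = 0.0826). miR-5121 was not called in papillomas (0.31 ± 0.26) or in cSCC (0.10 ± 0.26).

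The other overlapping miRNAs called against healthy skin went both ways. In papillomas miR-3069-3p (1.77 ± 0.59, adjusted p = 0.0222), miR-1940 (1.49 ± 0.54, adjusted p = 0.0343) and miR-3084-3p (1.12 ± 0.40, adjusted p = 0.0314) rose, also under the second scaling, miR-1940 without overlap. In cSCC miR-3069-3p (1.64 ± 0.59, adjusted p = 0.0285), miR-3096b-3p (1.30 ± 0.50, adjusted p = 0.0369) and miR-3096b-5p (0.89 ± 0.34, adjusted p = 0.0374) rose, also under the second scaling. In papillomas miR-3068-3p (-0.93 ± 0.35, adjusted p = 0.0411) and miR-1843b-3p (-0.79 ± 0.31, adjusted p = 0.0498) fell, and in cSCC miR-3068-3p (-1.25 ± 0.36, adjusted p = 0.00694) and miR-1843-3p (-1.56 ± 0.49, adjusted p = 0.0134) fell, and none of these 4 calls was made under the second scaling.

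The libraries held 2028162 to 3915431 counts in cSCC, 1270588 to 3797597 in papillomas, 5239742 to 10117810 in hyperplastic skin and 4753061 to 7395047 in healthy skin, of which the snoRNA members took 17057 to 86327 per library. The tumour libraries were thus the shallower ones, although 245 to 253 of the 253 members had at least 1 count in each library of the series. The counts were uneven: the most abundant member took 14.5% of all member counts, the top 4 took 35.7% and the top 10 took 50.1%, while the median member had a mean of 36.2 counts. By class, 71 members had a mean of 100 or more, 91 a mean of 20 to under 100 and 91 a mean of 5 to under 20. The short entries supplied 92.6% of member counts, and of the 71 most abundant members 63 were short and 8 long.

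Hyperplastic skin had the smallest mean share of snoRNA reads. The members made up 1.20% ± 0.130 of all counts in healthy skin (1.02% to 1.32%), 0.891% ± 0.0954 in hyperplastic skin (0.794% to 1.02%), 1.19% ± 0.202 in papillomas (0.903% to 1.42%) and 1.18% ± 0.186 in cSCC (0.905% to 1.40%; SD, n = 5 each). The hyperplastic libraries all lay below the healthy ones, but the gap was only that between 1.01936% and 1.02087%, and both tumour groups overlapped both skin groups. Short entries made up 1.12% of all counts in healthy skin, 0.821% in hyperplastic skin, 1.10% in papillomas and 1.10% in cSCC. Long entries made up 0.0817% in healthy skin, 0.0699% in hyperplastic skin, 0.0929% in papillomas and 0.0857% in cSCC. For every 100 counts of short entries there were 7.35 ± 1.54 counts of long entries in healthy skin, 8.62 ± 1.28 in hyperplastic skin, 8.65 ± 1.32 in papillomas and 7.86 ± 1.41 in cSCC, ranges that overlap between every pair of groups. No test was made on these sums. Taken as a percent of mature miRNA counts instead, the members stood at 1.79% ± 0.293 in healthy skin, 1.48% ± 0.139 in hyperplastic skin, 1.70% ± 0.406 in papillomas and 1.54% ± 0.211 in cSCC, and hyperplastic and healthy skin then overlapped.

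**Figure D1:**
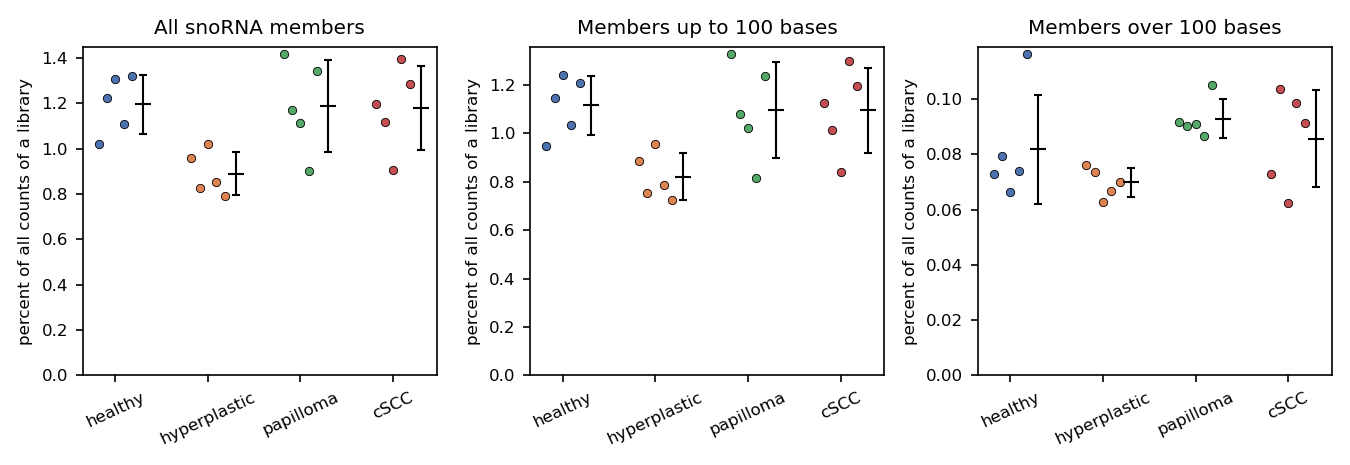
Share of all counts of a library (percent, y axis) held by all snoRNA members, by the short ones and by the long ones, in each of the 5 libraries of a group (points), with mean and SD beside them. The hyperplastic libraries run from 0.794% to 1.019% in the first panel, all below the healthy range of 1.021% to 1.32%. The tumour groups overlap both.

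The most abundant members had no common direction. The chr16:23109026-23109094 entry had 2244, 3499, 2507, 2387 and 1192 CPM in healthy skin, 1538, 161, 1908, 1964 and 1715 CPM in hyperplastic skin, 1338, 1827, 873, 1088 and 952 CPM in papillomas and 1112, 989.6, 1172, 2012 and 1062 CPM in cSCC. CPM here are taken over the library total, scaled by TMM factors over all 1522 features that passed the filter on low counts. A single hyperplastic library, replicate 2, stood at 161 CPM against 1538 to 1964 CPM in the other hyperplastic libraries, and groups overlapped in each comparison with healthy skin. None of its comparisons with healthy skin was called (papilloma log2 fold change -0.96 ± 0.41 SE, adjusted p = 0.0686; cSCC -0.90 ± 0.41, adjusted p = 0.0788). The next entry, 90 bases at chr11:74718926-74719015, averaged 1356 ± 307 CPM in cSCC and 799.8 ± 217 CPM in healthy skin (SD, n = 5 each) and was not called either (log2 fold change 0.76 ± 0.38, adjusted p = 0.104).

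Next in order, the third most abundant, 62 bases at chr1:162965981-162966042, averaged 1189 ± 487 CPM in cSCC and 527 ± 119 CPM in hyperplastic skin (SD, n = 5 each) and was higher in cSCC (log2 fold change 1.17 ± 0.36, adjusted p = 0.0109), a call lost without cSCC replicate 4 (adjusted p = 0.077). The fourth, the 74-base entry at chr11:106362305-106362378, fell in both tumour groups. It had 506, 605, 327, 302 and 388 CPM in papillomas and 334, 297, 287, 479.5 and 402 CPM in cSCC, against 730.0, 898, 575, 994 and 1049.5 CPM in healthy skin. The cSCC libraries all lay below the healthy ones, and papilloma replicate 3 overlapped them; the log2 fold changes were -1.0 ± 0.28 for papilloma (adjusted p = 0.00913) and -1.24 ± 0.28 for cSCC (adjusted p = 0.00124). The fifth, 77 bases at chr11:48615535-48615611, fell in cSCC, with 159, 166, 182, 219 and 196 CPM, against 342, 434, 306, 395 and 422 CPM in healthy skin (the log2 fold change was -1.04 ± 0.29, adjusted p = 0.0066, not called under the second scaling described next, adjusted p = 0.0581).

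**Figure D2:**
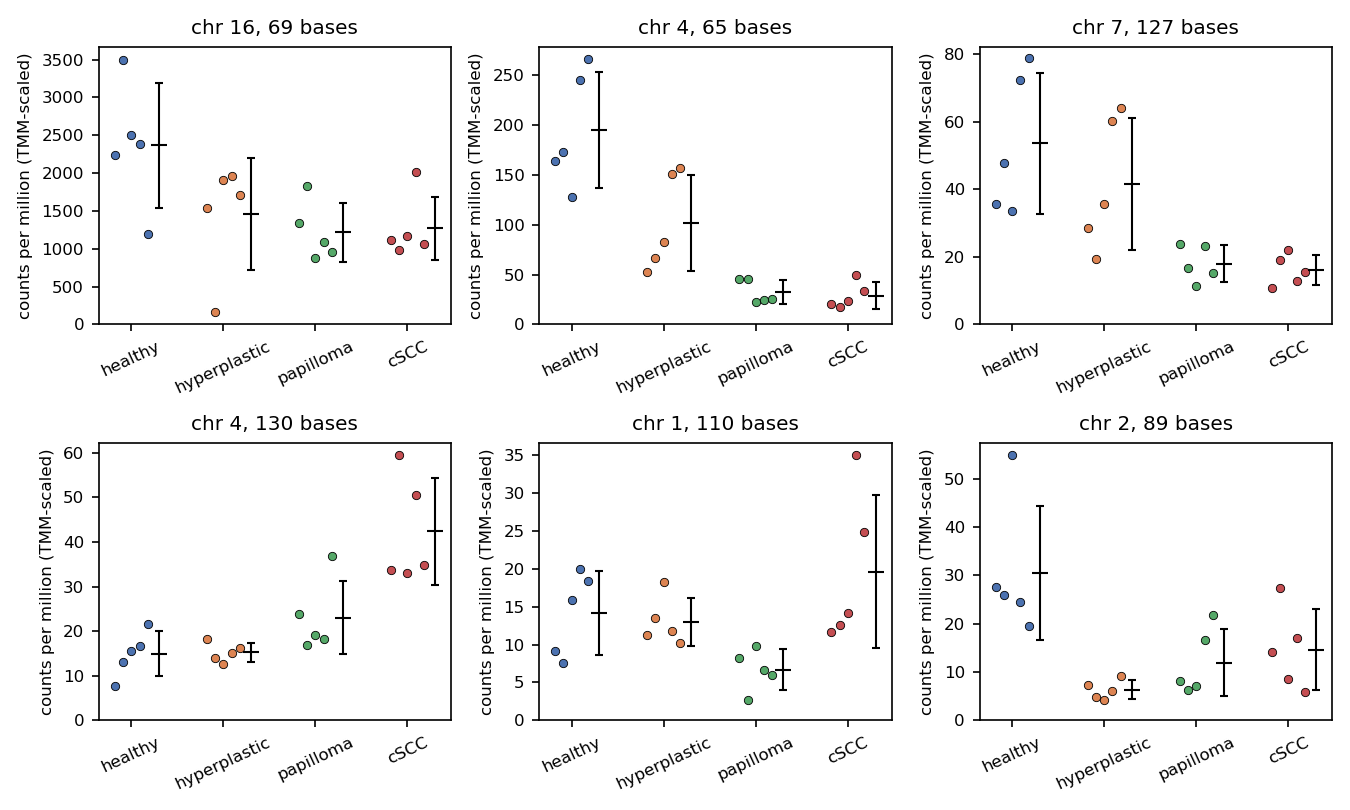
Level (CPM, y axis from 0) of 6 snoRNA entries in each of the 20 libraries (points) by group, with mean and SD beside them. The 65-base chromosome 4 entry and the 127-base chromosome 7 entry lie lower in every papilloma and cSCC library than in any healthy one, and the 130-base chromosome 4 entry lies higher in every cSCC library than in any healthy one.

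Direction depends on how libraries are scaled, and 2 scalings are therefore given for the counts of called members in each comparison. Values of single entries are from the first scaling unless the second is named. Counts of members or features without overlap of the libraries are from the first scaling alone. Of 77 calls of named members 16 were lost with the second, so a call given without it need not hold there. The first takes TMM factors from all 1522 tested features. The second takes them from the 495 features with an average of at least 50 CPM, of which 47 are members, and its log2 fold changes lie higher by a median of 0.32 for papilloma over healthy, 0.45 for cSCC over healthy, 0.12 for cSCC over papilloma, 0.33 for papilloma over hyperplastic and 0.45 for cSCC over hyperplastic skin (-0.01 for hyperplastic over healthy skin). Of the 253 members 225 passed the filter, and the 28 that did not all had a mean under 20. In a test of any difference among the 4 groups 87 of 225 members passed (38.7%), against 53.9% of all 1522 features.

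In papillomas more members were lower than higher against healthy skin. Of 225 members 12 were higher and 52 lower, 28.4% in all, against 36.5% of all features called; 5.33% of members were higher and 23.1% lower, against 22.3% and 14.2% of all features. With the second scaling 18 were higher (8% of members, 30.4% of all features) and 26 lower (11.6%, 8.41%), 19.6% of members against 38.8% of all features in all, and 12 higher and 26 lower members were called under both. The median log2 fold change was -0.33 over the members and 0.25 over all features, or -0.02 and 0.56 with the second scaling. The members' median thus lay below that of all features. A change of scaling moves both medians by about the same amount, so the second scaling is no separate check of this gap. Since some entries overlap, the 64 calls with the first scaling lie at 55 of 192 tested loci, 12 higher and 43 lower. Short entries gave 9 higher and 40 lower of 140, or 11 and 21 with the second scaling. Long entries gave 3 higher and 12 lower of 85, or 7 and 5 with the second scaling, which turns their balance round. With the first scaling papilloma libraries lay wholly below healthy ones in 31 members (13.8%, against 8.74% of all features). They lay wholly above in 5 (2.22%, against 8.8%). Overlap was not counted with the second scaling.

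The clearest fall was that of FR140401, the 65-base entry at chr4:130305553-130305617. It had 163, 173, 127, 245 and 266 CPM in healthy skin, 52.2, 66.8, 82.8, 151 and 156 CPM in hyperplastic skin, 45.1, 45.3, 22, 24.7 and 25.4 CPM in papillomas and 20.4, 17.1, 23.4, 49.8 and 33.6 CPM in cSCC. Every papilloma and cSCC library was below every healthy and every hyperplastic library. The log2 fold change of papilloma over healthy was -2.58 ± 0.37 (SE; adjusted p = 4.19e-05, edgeR quasi-likelihood F test) and -2.30 with the second scaling. The 28-base entry inside it described above, which may hold the same reads, had a log2 fold change of -2.63 ± 0.37.

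The steepest fold was at chr18:74938045-74938123, where a 79-base entry (FR022580) contains a 62-base one. The 79-base entry had 4.66, 0, 1.96, 2.62 and 3.63 CPM in papillomas and 11, 11.2, 11.7, 21.7 and 42.5 CPM in healthy skin, a log2 fold change of -2.93 ± 0.57 (adjusted p = 0.00063). The nested entry gave -2.90 ± 0.51 from largely the same counts. A 221-base entry at chr2:144091718-144091938 had 2.66, 0.546, 2.75, 2.62 and 3.63 CPM in papillomas and 10.8, 16.9, 5.42, 15.4 and 21.9 CPM in healthy skin (the log2 fold change was -2.57 ± 0.54, adjusted p = 0.00103). A 28-base piRNA-class entry at its low-coordinate end had 86.9% as many counts. The same short entry had 25.1% as many as a 238-base entry that contains the 221-base one (chr2:144091715-144091952). In all of these the papilloma libraries lay wholly below the healthy ones.

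The 64-base entry at chr1:9932551-9932614 had 18.2, 7.64, 8.64, 10.2 and 12.7 CPM in papillomas, against 38.3, 21.3, 25.5, 123 and 103 CPM in healthy skin, where it spread widely, and the groups did not overlap (log2 fold change -2.43 ± 0.53, adjusted p = 0.00152). The 72-base entry at chr2:130103752-130103823, with the 29-base piRNA-class entry at its first base, had 38, 45, 35.7, 33.7 and 32.6 CPM in papillomas and 97.9, 113, 80.2, 172 and 235 CPM in healthy skin (the log2 fold change was -1.91 ± 0.34, adjusted p = 0.000331). All the falls named here were also called under the second scaling and with each library left out in turn.

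Rises in papillomas were fewer and rested on the choice of libraries: the count of 12 was 3 to 8 when 1 library at a time was left out, 3 without healthy replicate 5, and 4 without papilloma replicate 4, 5 or 6. The 130-base entry at chr3:123210855-123210984 had 58.6, 78.3, 48.3, 66.2 and 50.8 CPM in papillomas and 27.5, 18.8, 26.7, 22.8 and 55.6 CPM in healthy skin (the log2 fold change was 1.0 ± 0.31, adjusted p = 0.0162), and only healthy replicate 7, at 55.6 CPM, reached the papilloma range; the call was lost when any of 6 of the 10 libraries was left out. The 76-base entry at chr19:8799358-8799433 had 37.7, 34.4, 27.5, 31.1 and 26.6 CPM in papillomas and 22.4, 20.5, 21.9, 12.4 and 11.8 CPM in healthy skin, without overlap (log2 fold change 0.83 ± 0.28, adjusted p = 0.0252), and this call was lost when any of 8 of the 10 libraries was left out. Smaller entries that rose were 72 bases at chr10:127522345-127522416 (1.23 ± 0.39), which contains miR-677, 66 bases at chr1:162967115-162967180 (1.27 ± 0.51), 62 bases at chr4:131866222-131866283 (1.63 ± 0.63) and 70 bases at chr2:26767738-26767807 (0.87 ± 0.33); with adjusted p from 0.0185 to 0.0496 each overlapped healthy skin, and leaving out 1 library ended each of these calls in 3 to 8 of 10 cases.

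**Figure D3:**
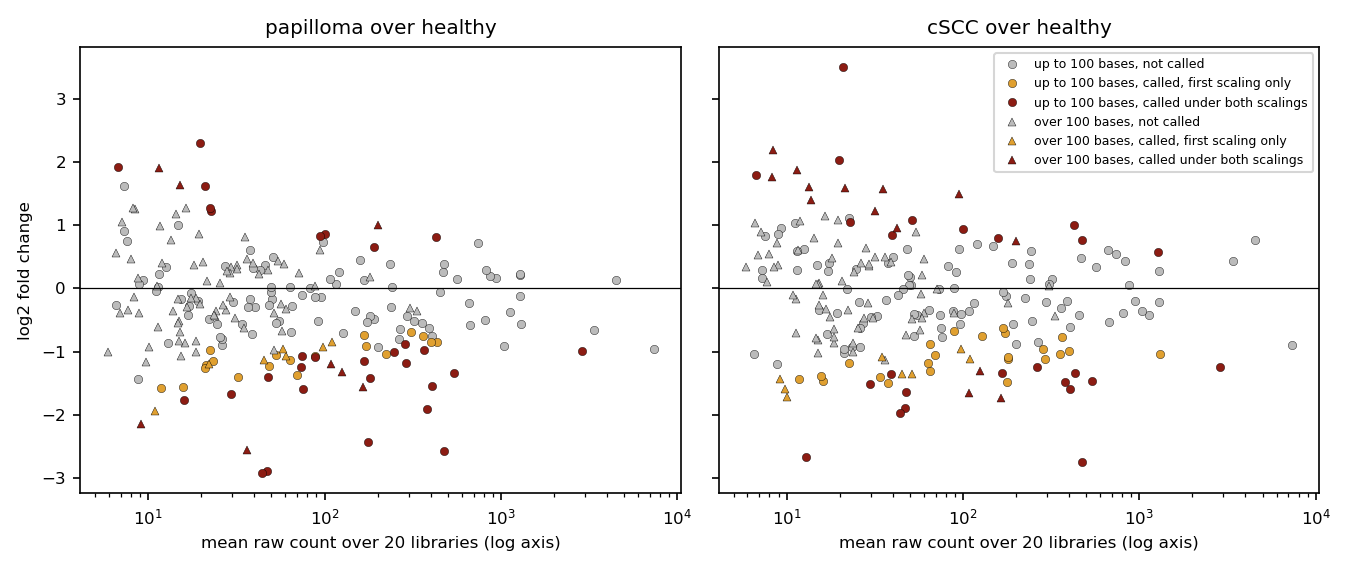
Log2 fold change (y axis) against mean raw count (x axis, log scale) of the 225 tested members, for papilloma over healthy and cSCC over healthy skin; circles are short and triangles long entries, and colour shows whether a member was called. Under both scalings 12 higher and 26 lower members were called in papillomas, and 22 higher and 17 lower in cSCC.

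In cSCC 22 members were higher and 48 lower than in healthy skin, 31.1% in all, against 44.3% of all features; 9.78% of members were higher and 21.3% lower, against 24.8% and 19.6% of all features. The second scaling turned the balance round, with 47 higher (20.9% of members, 38.4% of all features) and 17 lower (7.56%, 10.3%), 28.4% against 48.8% in all, and 22 higher and 17 lower were called under both. The median log2 fold change was -0.22 over the members and 0.28 over all features, or 0.23 and 0.72 with the second scaling. The 70 calls with the first scaling lie at 65 of 192 tested loci, 20 higher and 45 lower. Short entries gave 11 higher and 37 lower of 140, or 29 and 14 with the second scaling, which turns their balance round. Long entries gave 11 higher and 11 lower of 85, or 18 and 3 with the second scaling. With the first scaling members with no overlap were 28 below (12.4%, against 12.7% of all features) and 8 above (3.56%, against 12.9%). Overlap was not counted with the second scaling, which turned the balance of calls round. The count of 22 higher was 4 without cSCC replicate 2, 8 without cSCC replicate 4, 13 without cSCC replicate 3, 9 without healthy replicate 2 or 5, 10 without healthy replicate 3 and 12 without healthy replicate 4.

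FR140401 was the steepest named fall in cSCC, with the levels given above. Its log2 fold change was -2.76 ± 0.37 (adjusted p = 3.28e-06, edgeR quasi-likelihood F test), and -2.33 with the second scaling. The 127-base entry at chr7:150717299-150717425, among the 5 most abundant long members, had 10.8, 19, 22, 13 and 15.6 CPM in cSCC and 23.8, 16.6, 11.4, 23.2 and 15.1 CPM in papillomas, against 35.6, 47.9, 33.7, 72.4 and 78.7 CPM in healthy skin. Both tumour groups lay wholly below healthy skin; the log2 fold change was -1.74 ± 0.35 for cSCC (adjusted p = 0.000367) and -1.56 ± 0.35 for papilloma (adjusted p = 0.00184), and both held under both scalings and without any 1 library.

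The 197-base entry at chr14:33005040-33005236 had 6.36, 5.47, 7.78, 14.5 and 16.4 CPM in cSCC and 38.9, 36.8, 19.2, 21.7 and 42.3 CPM in healthy skin (the log2 fold change was -1.66 ± 0.40, adjusted p = 0.00183). The 57-base entry at chr17:35087897-35087953 had 6.08, 5.15, 3.34, 8.35 and 2.52 CPM in cSCC and 16.3, 14.7, 12.2, 19.9 and 16.7 CPM in healthy skin (the log2 fold change was -1.64 ± 0.38, adjusted p = 0.00139). Neither overlapped healthy skin, and the chromosome 18 pair also fell in cSCC (-1.98 ± 0.54 and -1.89 ± 0.48).

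The largest rise was at chr4:131866155-131866284, where a 130-base entry (FR303868) contains a 62-base entry (FR266975) near its high-coordinate end. The 130-base entry had 7.75, 13.2, 15.6, 16.8 and 21.5 CPM in healthy skin, 18.2, 13.9, 12.7, 15.1 and 16.3 CPM in hyperplastic skin, 23.8, 16.9, 19.2, 18.3 and 36.9 CPM in papillomas and 33.7, 59.6, 33.1, 50.4 and 34.9 CPM in cSCC. Every cSCC library lay above every healthy and every hyperplastic one, and the papillomas in between overlapped both. Its log2 fold change of cSCC over healthy was 1.5 ± 0.30 (adjusted p = 0.000358; 1.96 with the second scaling).

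The nested 62-base entry had lower levels and a larger fold: 6.08, 36.1, 16.7, 16.7 and 3.36 CPM in cSCC and 0.506, 0.969, 2.03, 1.24 and 2.19 CPM in healthy skin, a log2 fold change of 3.51 ± 0.61 (adjusted p = 8.93e-05). Both rises kept their call without any 1 library, from 1.07 to 1.64 for the 130-base entry and from 2.67 to 3.73 for the nested one. The 2 entries may share reads and are not independent.

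The other named entries that rose in cSCC overlapped healthy skin or leaned on few libraries. The 131-base entry at chr5:121655022-121655152 had 5.53, 25.4, 5.0, 14.5 and 7.15 CPM in cSCC and 4.72, 3.49, 3.16, 5.82 and 1.79 CPM in healthy skin (the log2 fold change was 1.59 ± 0.48, adjusted p = 0.011), and without cSCC replicate 2 the value was 0.81 and not called. The 74-base entry at chr1:162967492-162967565, which overlaps miR-5117, averaged 21 ± 9.96 CPM in cSCC and 9.86 ± 3.61 CPM in healthy skin (the log2 fold change was 1.09 ± 0.36, adjusted p = 0.019; SD, n = 5 each). The 130-base entry at chr14:76247712-76247841 averaged 10.5 ± 7.9 CPM in cSCC and 4.46 ± 2.01 CPM in healthy skin (1.23 ± 0.44, adjusted p = 0.0254). The last 2 calls were each lost when any of 6 of the 10 libraries was left out.

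Marker miRNAs of other cell types differed in level between these groups. Among mature miRNAs, the 4 listed markers of striated muscle summed to 1894 to 3130.1 CPM of the mature miRNA counts in cSCC and 2884 to 10372 in papillomas, against 15982 to 61597 in healthy skin. The 4 leukocyte markers summed to 43643 to 138687 in cSCC and 14922 to 100742 in papillomas, against 14776 to 22887 in healthy skin. The 2 keratinocyte markers, miR-203-3p and miR-205-5p, summed to 58262 to 125573 in cSCC, 170564 to 210092 in papillomas and 133764 to 214703 in hyperplastic skin, against 123935 to 169199 in healthy skin. Smooth muscle markers summed to 16719 to 30796 in cSCC and 25362 to 31454 in papillomas, against 52915 to 90533 in healthy skin, and endothelial ones to 10596 to 19529 in cSCC and 13460.3 to 16410.3 in papillomas, against 22106 to 31193 in healthy skin. The melanocyte pair summed to 55.4 to 152 in cSCC and 294 to 974 in papillomas, against 547 to 2169 in healthy skin, and the neural pair to 5.39 to 66.7 in cSCC and 21.5 to 34.9 in papillomas, against 15.2 to 44 in healthy skin. Every listed marker was found and none was at 0 in any library. Their part in the snoRNA results was not tested, and in bulk skin fewer cells of a type and less RNA per cell cannot be told apart.

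Between the 2 tumour groups few members differed. Of 225 members 3 were higher and 1 lower in cSCC than in papillomas, 1.78%, against 4.93% of all features (3.22% higher and 1.71% lower); the second scaling gave 6 higher and 1 lower (3.11%, against 4.86% of all features, 3.75% higher and 1.12% lower). The 110-base entry at chr1:39605590-39605699 had 11.6, 12.6, 14.2, 35 and 24.8 CPM in cSCC and 8.21, 2.73, 9.82, 6.68 and 6.04 CPM in papillomas, without overlap (log2 fold change 1.55 ± 0.39, adjusted p = 0.0186). An entry of only 15 bases inside it had a mean of 48.25 counts, against 60.25 for the whole, and gave 1.85 ± 0.41 (adjusted p = 0.00746), so the count of 3 higher stands for 2 loci. The call of the 110-base entry was lost without cSCC replicate 4 (adjusted p = 0.0844), and that of the 15-base entry was not lost.

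The other rise was a 53-base entry at chr11:77996563-77996615, with 18, 12.9, 10.3, 37.4 and 16 CPM in cSCC and 7.1, 7.91, 10.6, 6.97 and 7.86 CPM in papillomas (log2 fold change 1.23 ± 0.35, adjusted p = 0.0372), which overlapped and lost its call when any of 4 of the 10 libraries was left out. The 63-base entry at chr1:59761652-59761714 went the other way, with 1.93, 2.9, 4.17, 2.17 and 5.47 CPM in cSCC and 11.1, 9.0, 16.5, 23.2 and 10.9 CPM in papillomas, without overlap (log2 fold change -2.10 ± 0.48, adjusted p = 0.00822). It was also lower in cSCC than in healthy skin (-1.5 ± 0.47, adjusted p = 0.0133), a call that the second scaling did not make, and was not called in papillomas (0.60 ± 0.44, adjusted p = 0.28). The count of 3 higher was 1 without cSCC replicate 4 and 5 without cSCC replicate 2 or papilloma replicate 4. It was 7 without papilloma replicate 6 or cSCC replicate 6, 8 without cSCC replicate 1 and 9 without cSCC replicate 3. DESeq2 called 10 higher, and the share of all features that it called was not counted.

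Treated skin without a tumour differed from healthy skin in 1 member by the test, while most members leaned lower. Of 225 members 0 were higher and 1 was lower (0.444%, against 0.329% of all features, 0.263% higher and 0.0657% lower), the same with the second scaling (against 0.197% of all features, 0.131% higher and 0.0657% lower), and 40 members had an unadjusted p under 0.05 (17.8%, against 12.7% of all features). DESeq2 called 8 lower and 0 higher, but the share of all features that it called was not counted. The log2 fold change was above 0 in 19.1% of members and in 54.6% of all features, and the median was -0.34 over the members and 0.07 over all features. Hyperplastic libraries lay wholly below healthy ones in 14 members, all of them short (6.22% of members, against 1.25% of all features), and wholly above in 0 (1.77% of all features). This direction did not depend on the scaling, whose shift here was -0.01.

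Striated muscle markers stood at 16184 to 38250.4 CPM of the mature miRNA counts in hyperplastic skin, against 15982 to 61597 in healthy skin, and leukocyte markers at 10609 to 17639 in hyperplastic and 14776 to 22887 in healthy skin. Smooth muscle markers stood at 36192 to 63929.9 in hyperplastic and 52915 to 90533 in healthy skin, and endothelial ones at 16354 to 28461 in hyperplastic and 22106 to 31193 in healthy skin. Melanocyte markers stood at 729 to 2991 in hyperplastic and 547 to 2169 in healthy skin, with medians of 2508 in hyperplastic and 666 in healthy skin, and neural ones at 18.1 to 34.1 in hyperplastic and 15.2 to 44 in healthy skin. The ranges overlapped in each of these lists. Their part in these differences was not tested.

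The member called was an 89-base entry at chr2:166890498-166890586. It had 27.6, 26, 54.9, 24.5 and 19.5 CPM in healthy skin, 7.3, 4.89, 4.29, 6.02 and 9.29 CPM in hyperplastic skin, 8.21, 6.27, 7.07, 16.6 and 21.8 CPM in papillomas and 14.1, 27.4, 8.62, 17 and 5.89 CPM in cSCC. All hyperplastic libraries lay below all healthy ones, and both tumour groups overlapped healthy skin. The log2 fold change of hyperplastic over healthy was -2.26 ± 0.42 (adjusted p = 0.00843) and stayed called without any 1 library (-2.52 to -2.09). Against healthy skin the same entry was lower in papillomas (-1.37 ± 0.41, adjusted p = 0.0133) and in cSCC (-1.06 ± 0.40, adjusted p = 0.0367), 2 calls that the second scaling did not make (adjusted p = 0.0706 in papillomas and 0.266 in cSCC). Leaving out 1 library raised the count of 1 lower member to 3 in 3 cases, namely hyperplastic replicate 7, healthy replicate 3 and healthy replicate 4.

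Against hyperplastic skin, which shares the chemical treatment with the tumours, papillomas had 12 members higher and 11 lower (10.2%, against 28.4% of all features, 16.2% higher and 12.3% lower), or 28 and 3 with the second scaling (13.8%, against 30.7%, 23.7% higher and 7.1% lower). In cSCC 32 were higher and 15 lower (20.9%, against 42% of all features, 21.7% higher and 20.2% lower), or 69 and 6 (33.3%, against 45%, 33.9% higher and 11.1% lower). With the first scaling the calls lie at 22 loci in papillomas and 44 in cSCC. These comparisons share the hyperplastic libraries with each other and the tumour libraries with the comparisons above. FR140401 was lower here too, with log2 fold changes of -1.64 ± 0.36 in papillomas (adjusted p = 0.00253) and -1.82 ± 0.36 in cSCC (adjusted p = 0.000355).

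The 75-base entry at chr12:110919010-110919084 was lower in cSCC than in hyperplastic skin, with 23.8, 6.44, 8.06, 7.73 and 5.05 CPM in cSCC and 45.3, 30.3, 22.3, 27.1 and 34.1 CPM in hyperplastic skin (log2 fold change -1.62 ± 0.49, adjusted p = 0.0107); cSCC replicate 1 overlapped. In healthy skin this entry averaged 13.6 CPM (4.29 to 34.9), against 10.2 CPM in cSCC, 22.5 CPM in papillomas and 31.8 CPM in hyperplastic skin. Its cluster has 51 of the table's mature miRNAs within 50 kb. FR266975 was higher in cSCC (2.92 ± 0.58, adjusted p = 0.000367), and so were the chromosome 5 entry of 131 bases (2.18 ± 0.49) and the chromosome 1 entry of 74 bases (1.54 ± 0.37). In papillomas the 76-base chromosome 19 entry was higher (1.13 ± 0.28, adjusted p = 0.00507), 1 of 9 members wholly above (4%, against 6.64% of all features). The count of 15 lower in cSCC was 8 without hyperplastic replicate 8, that of 32 higher was 17 without cSCC replicate 4 and 18 without cSCC replicate 2. In papillomas the 12 higher were 7 without hyperplastic replicate 8 or papilloma replicate 6, and the 11 lower were 3 without hyperplastic replicate 7 and 5 without hyperplastic replicate 8.

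In several clusters neighbouring entries moved in different directions. Members with FR identifiers that lie within 5000 bases of each other formed 59 clusters of at least 2 entries. These hold 178 members, and 8 of the clusters span at least 4 loci. Some of the 59 consist of overlapping entries of 1 locus alone, such as that at chr1:39605590-39605699, and hold no neighbouring loci. SnoRNAs that sit close together are often released from introns of a single transcript, as background; the table does not name the host genes. There were 34 groups with at least 2 tested loci. They are clusters, except that the Ensembl entries, which lie on several chromosomes, were pooled as 1 group. In papilloma over healthy skin 7 of the 34 had at least 2 called loci, of which 5 had calls both ways and 2 had falls alone. In cSCC over healthy skin 7 had at least 2 called loci as well, 4 with calls both ways, 2 with falls alone and 1 with rises alone.

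At chr2:130101251-130103823, 5 entries lie side by side. The 72-base entry at its high end fell in papillomas (-1.91 ± 0.34), as described, while an 86-base entry at chr2:130102931-130103016 had 14.2, 8.46, 8.64, 4.94 and 6.65 CPM in papillomas and 1.35, 2.13, 2.71, 2.12 and 0.399 CPM in healthy skin, which is 2.30 ± 0.46 as log2 fold change (adjusted p = 0.000701), with 2.03 ± 0.46 in cSCC (adjusted p = 0.00118). Both directions held under both scalings. The 70-base entry between them, at chr2:130103433-130103502, was not called in papillomas against healthy skin (log2 fold change 0.01 ± 0.41, adjusted p = 0.987). The 86-base entry, with a mean of 19.7 counts, was chosen for description after its values were seen.

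At chr19:8798483-8800481, 8 entries lie in a row, and in papillomas over healthy skin 1 was higher and 2 were lower, with log2 fold changes from -1.05 to 0.83. At chr1:162965525-162968514, 9 entries gave 1 higher and 3 lower in papillomas (-1.43 to 1.27) and 1 higher and 2 lower in cSCC. The cluster at chr4:131865380-131866685, where FR303868 lies, had 3 of 7 entries higher and 0 lower in cSCC. There a 129-base entry at chr4:131865856-131865984 was not called in cSCC (-0.23 ± 0.37, adjusted p = 0.619), although a 117-base entry nested in it was higher (0.97 ± 0.36, adjusted p = 0.0326). The 5 entries at chr7:51503460-51505912 gave 3 lower and 0 higher in cSCC, from -0.996 to -0.334, and the 5 entries at chr4:116826698-116828453, of which 4 were tested, gave no call in any of the 6 comparisons.

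**Figure D4:**
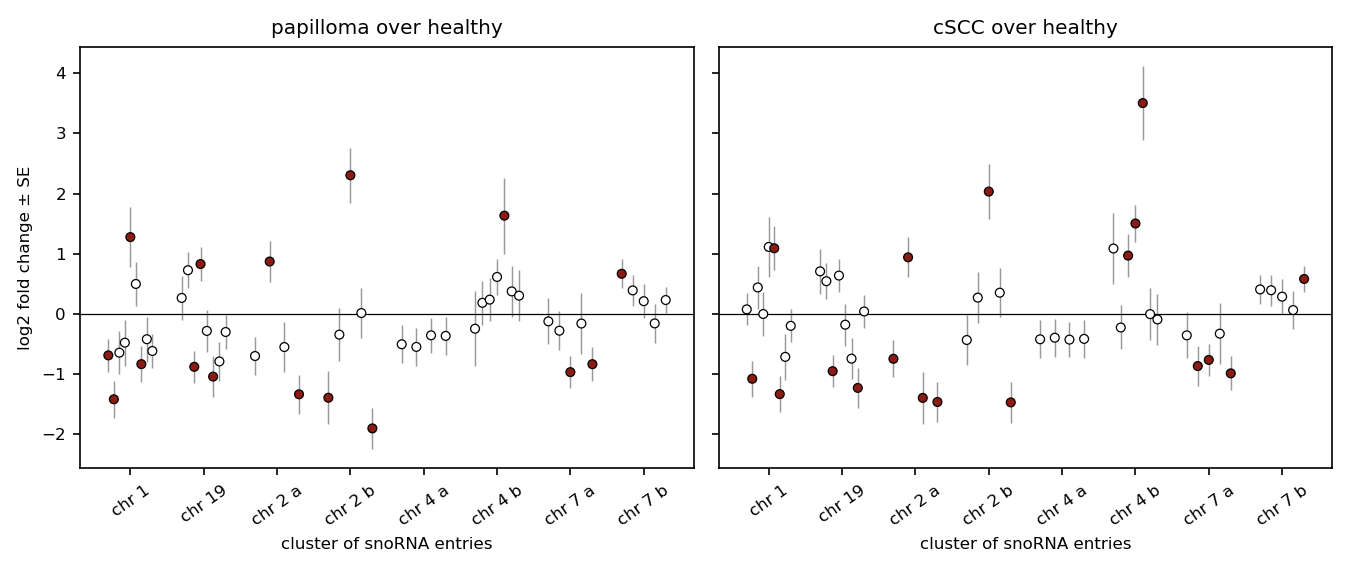
Log2 fold change with SE (y axis) of each tested entry of the 8 clusters that span at least 4 loci (x axis, entries in the order of position; letters tell apart clusters of 1 chromosome), filled where called. The cluster chr 2 b runs from -1.91 to 2.30 in papilloma over healthy skin, and chr 4 b from -0.23 to 3.51 in cSCC over healthy skin.

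The ratio of a short entry's count to that of the member around it differed between groups at some entries, which were chosen for description after their values were seen. The 67-base entry at chr19:8799024-8799090 contains a 27-base piRNA-class entry that starts 40 bases in. The count of the 27-base entry was 53.3% ± 9.46 (44.1 to 63.5) of that of the 67-base entry in healthy skin, 49% ± 11.2 (35.5 to 58.8) in hyperplastic skin, 30.2% ± 11.3 (16 to 44.2) in papillomas and 25.4% ± 2.89 (21.2 to 28.6) in cSCC (SD, n = 5 each, lowest to highest in brackets). The cSCC libraries all lay below the healthy and the hyperplastic ones, and the papillomas overlapped healthy skin at a single value. The entry itself had a log2 fold change of -0.89 ± 0.27 in papillomas (adjusted p = 0.0147) and -0.96 ± 0.27 in cSCC (adjusted p = 0.00663), while the 27-base stretch gave -1.77 ± 0.32 in papillomas (adjusted p = 0.00036) and -2.03 ± 0.33 in cSCC (adjusted p = 3.24e-05). The difference between entry and stretch, which may share reads, was not tested.

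By contrast the ratio at the most abundant entry was 98% ± 0.978 (96.5 to 98.8) in cSCC and 98.7% ± 0.665 (97.6 to 99.2) in healthy skin. That at the 95-base chromosome 5 entry was 95.9% ± 1.15 (94.1 to 97) in papillomas and 90.4% ± 1.73 (88.7 to 93) in healthy skin, a small difference without overlap. That at FR140401 was 83.4% ± 7.6 (73.8 to 91.7) in cSCC, 86.5% ± 2.42 (83.3 to 89.2) in papillomas and 90.6% ± 1.25 (89 to 92.4) in healthy skin, with overlap in both tumour groups.

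**Figure D5:**
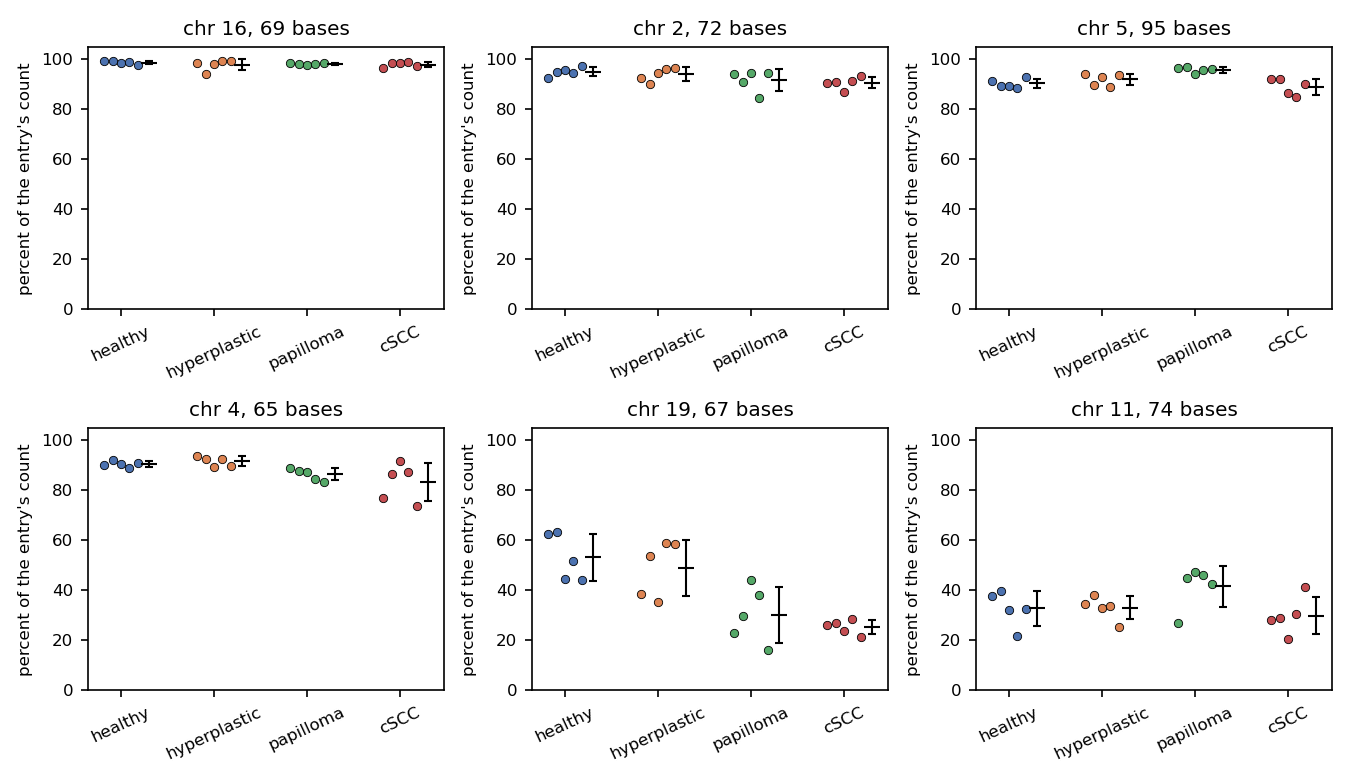
Count of a piRNA-class entry as a percent of that of the snoRNA entry around it (y axis), in each library of a group (points) with mean and SD, for 6 entries. The 67-base chromosome 19 entry stands at 21.2% to 28.6% in cSCC, against 44.1% to 63.5% in healthy skin; the 69-base chromosome 16 entry stays at 94.1% or more in every library.

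Of the 6 Ensembl members, the entry of Snora81, an H/ACA snoRNA, had 10.5, 24.2, 8.06, 10.2 and 5.89 CPM in cSCC and 5.9, 3.1, 4.52, 2.29 and 3.79 CPM in healthy skin (the log2 fold change was 1.58 ± 0.40, adjusted p = 0.00273), at chr16:23110756-23110933 as the table gives it, which is the GRCm38 position. Without cSCC replicate 2 the value was 0.86 and not called. The entry of Gm22011 was higher in papillomas (1.64 ± 0.61 over healthy skin, adjusted p = 0.0381) and that of Gm24616 lower in cSCC than in hyperplastic skin (-1.23 ± 0.47, adjusted p = 0.0375), both with calls lost in 7 or 8 of 10 cases when 1 library was left out. The entries of Gm23927 and Gm24698 were not called against healthy skin, and that of Gm26447 did not pass the filter. The table also has FR entries close to these positions. A 164-base one at chr16:23110843-23111006 overlaps the Snora81 position as given. It was not called in the test of any difference among the 4 groups (adjusted p = 0.31, edgeR quasi-likelihood F test). Another at chr16:23111690-23111828 had a mean of 4.55 counts, against 47.8 for the Gm24616 entry at chr16:23111617-23111755. A 129-base one at chr16:23111374-23111502 had a mean of 16.65 counts, against 5.7 for the 129-base Gm26447 entry at chr16:23111301-23111429. The high-coordinate end of each of these FR entries lies the same number of bases above that of the Ensembl entry named with it. Whether these stand for the same genes was not tested. Because the Ensembl positions and the build named for the table differ, whether the counts at the Ensembl entries come from the named genes cannot be told.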

How the data were processed

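Small RNA libraries of 20 skin samples were counted by the authors; the deposited table gives whole-number raw counts for 2127 features with their class and position, and the submitters' processing notes name mm9. Per the labels, total RNA was extracted with a miRNeasy kit and libraries were size-selected on acrylamide gel. The aligner, the annotation and the handling of reads that match several entries were not given in the sources used here. In the deposited counts no feature has a total under 21 over the 20 libraries.

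The members and lists were chosen with earlier results of these data known. All features were fitted together with edgeR 4.0.16 in R 4.3.3 (filterByExpr by group with a minimum count of 10 and a minimum total of 15, TMM factors of 0.714 to 1.37, 1 mean per group over all 20 libraries, quasi-likelihood F test), with Benjamini-Hochberg adjustment over the 1522 features tested and a threshold of 0.05. SE is the absolute log2 fold change divided by the square root of F. CPM were computed from the deposited counts with these factors. The procedure was also run on simulated counts in which as many features were raised as lowered in cSCC. Such balanced changes cannot probe the difference between the 2 scalings. Alternatives were factors from features of at least 50 CPM, DESeq2 size factors, snoRNA features alone, no filter, DESeq2 1.42.0 itself, a block for replicate number, the 2 groups compared alone, each library left out, and, added after seeing the data, 1 entry per overlapping locus.

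The rule for named members took the 5 most abundant of each class and, in each comparison of papilloma or cSCC with healthy skin, cSCC with papilloma and hyperplastic with healthy skin, the 6 largest changes each way among called members with a mean count of at least 20, the 3 largest each way against hyperplastic skin, and the Ensembl members. Since the FR identifiers have no names, length (up to 100 bases or more) stood in for class, and prepared lists of C/D and H/ACA names could not be applied. No p-value was computed for sums over members. Counts limit precision: 213 members had a count in every library and 40 were at 0 in at least 1. No 2 libraries held identical values (highest correlation 0.985). Whether replicate numbers pair the libraries is not stated. Of 17 same-numbered pairs 3 had a correlation of deviations over 0.1 (-0.169 to 0.247). Differently numbered pairs were not computed for reference, so these values cannot decide it.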

Additional observations from a re-analysis of the deposited data

Results flagged for a closer look

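In 168 groups of 5 libraries the highest or lowest value was set against the gap to the next by Dixon's ratio (critical value 0.710), and 13 values lay beyond it; chance alone gives about 1 in 20 groups. The 69-base chromosome 16 entry stood at 161 CPM in hyperplastic replicate 2, against 1538 to 1964 CPM in the other hyperplastic libraries. The 69-base chromosome 16 entry was at 2012 CPM in cSCC replicate 4, against 989.6 to 1172 CPM in the other cSCC libraries. The 130-base chromosome 3 entry lay at 55.6 CPM in healthy replicate 7, against 18.8 to 27.5 CPM in the other healthy libraries. The 66-base chromosome 1 entry reached 9.49 CPM in healthy replicate 4, against 1.2 to 3.03 CPM in the other healthy libraries. The 72-base chromosome 2 entry stood at 83.8 CPM in cSCC replicate 4, against 39.1 to 43.5 CPM in the other cSCC libraries. The Snora81 entry was at 24.2 CPM in cSCC replicate 2, against 5.89 to 10.5 CPM in the other cSCC libraries. The 53-base chromosome 11 entry lay at 10.6 CPM in papilloma replicate 4, against 6.97 to 7.91 CPM in the other papilloma libraries. The 53-base chromosome 11 entry reached 37.4 CPM in cSCC replicate 4, against 10.3 to 18 CPM in the other cSCC libraries. The 89-base chromosome 2 entry stood at 54.9 CPM in healthy replicate 4, against 19.5 to 27.6 CPM in the other healthy libraries. The 75-base chromosome 12 entry was at 23.8 CPM in cSCC replicate 1, against 5.05 to 8.06 CPM in the other cSCC libraries. The Gm22011 entry lay at 6.36 CPM in hyperplastic replicate 1, against 0.569 to 2.1 CPM in the other hyperplastic libraries. Long entries made up 0.105% of all counts in papilloma replicate 6, against 0.0865% to 0.0917% in the other papilloma libraries. Long entries made up 0.116% of all counts in healthy replicate 7, against 0.0664% to 0.0794% in the other healthy libraries.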

How the results depend on the processing

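With factors from abundant features, papillomas against healthy skin had 26 members lower in place of 52, cSCC against healthy skin 47 higher and 17 lower in place of 22 and 48, cSCC against papillomas 6 higher in place of 3, papillomas against hyperplastic skin 28 higher and 3 lower in place of 12 and 11, and cSCC against hyperplastic skin 69 higher and 6 lower in place of 32 and 15. For papillomas against healthy skin, the 12 higher became 7 with DESeq2 size factors, 4 without a filter, 1 with the 2 groups alone and 6 with 1 entry per locus, and the 52 lower became 27 with snoRNA features alone. The 22 higher in cSCC became 14 without a filter. For cSCC against papillomas the 3 higher became 1 with snoRNA features alone, 5 without a filter and 10 with DESeq2, and for hyperplastic against healthy skin the 1 lower became 8 with DESeq2 and 2 with 1 entry per locus. With the replicate number as a block, papillomas against healthy skin had 5 higher and 25 lower, cSCC against healthy skin 9 and 28, papillomas against hyperplastic skin 0 and 0, and cSCC against hyperplastic skin 9 and 4. Whether that number pairs libraries is not known. For settings other than the 2 scalings the share of all features called was not counted.

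Leaving out 1 library at a time gave 3 to 8 higher and 35 to 67 lower in papillomas against healthy skin, 4 to 22 and 38 to 64 in cSCC against healthy skin, 1 to 9 and 1 to 2 in cSCC against papillomas, 0 and 1 to 3 in hyperplastic against healthy skin, 7 to 14 and 3 to 15 in papillomas against hyperplastic skin, 17 to 41 and 8 to 18 in cSCC against hyperplastic skin, and 66 to 97 members with any difference. The 1 lower in cSCC against papillomas was 2 without papilloma replicate 6 or cSCC replicate 2; the 12 higher in papillomas against healthy skin were also 6 without papilloma replicate 1 or 3, 5 without healthy replicate 2 and 7 without healthy replicate 3. As percent of mature miRNA counts, healthy, hyperplastic, papilloma and cSCC libraries had 1.79, 1.48, 1.70 and 1.54 for all members, 1.67, 1.36, 1.57 and 1.42 for short and 0.121, 0.117, 0.132 and 0.112 for long entries. Of 77 calls of named members none reversed; 16 were lost with factors from abundant features, 43 with the replicate block, 12 with the 2 groups alone, 9 without a filter, 9 with snoRNA features alone, 4 with DESeq2 size factors, 2 with DESeq2 and, of the 64 that could be fitted, 5 with 1 entry per locus. The cause of these shifts was not tested. Depth was lowest in papillomas, where low entries rest on few counts.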
